A study of Oryza sativa with 9 samples.

Results

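The transcripts described here are those that separate a pair of rice lines carrying different substitutions in the same RNA-binding protein. They were chosen from the deposited expression table by 2 conditions. The mean over the 9 libraries had to be at least 2 RPKM (reads scaled by exon length and by the mapped reads of the library), and the lowest library of 1 line had to reach at least 1.4 times the highest library of the other line. Of 55986 loci in the table, 13254 reached that mean and 129 met both conditions. In 46 of these the conditions held only because a lowest and a highest value of 0 were compared, and they are described separately. The remaining 83 genes had reads in every library of the higher line, with 43 higher in P1MH (0.324% of 13254) and 40 higher in P3MH (0.302%). The balance between the directions depended on the scaling, with 36 and 42 genes after rescaling by the median ratio, 31 and 53 by the upper quartile, and 36 and 52 after quantile normalization.

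The series holds 9 RNA-seq libraries of dehulled developing rice seeds (Oryza sativa), taken 10 to 14 days past flowering. Plants grew in chambers at 27 °C, lit for 12 h and dark for 12 h a day. WT is the wild type, P1MH carries the G401S substitution in RBP-P, and P3MH carries the A252T substitution, with 3 biological repeats each. Each substitution is represented by 1 line, so the substitution and any other difference between the lines cannot be told apart. RBP-P (LOC_Os01g16090) is an RNA-binding protein of the rice endosperm that binds messenger RNAs of the storage proteins glutelin and prolamine and takes part in placing them on the endoplasmic reticulum. At this stage most of the seed is endosperm filling with starch and storage protein, beside a small embryo and the aleurone layer. Hormones such as abscisic acid, which promotes maturation and dormancy, are made and broken down in the same tissues.

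RBP-P itself was at 16.2, 12.9 and 12.7 RPKM in the WT libraries, at 10.9, 10.4 and 7.04 RPKM in P1MH, and at 8.71, 11.9 and 7.87 RPKM in P3MH, and an RPKM value does not show which substitution a library carries. The libraries were of similar depth, with 5865007 to 7498434 mapped reads, as the steps between low RPKM values show. The summed level of 4 endosperm markers (GluA-1, GluA-2, AGPS2 and BEI) was 26300 to 31700 RPKM in WT, 40100 to 46400 RPKM in P1MH and 28800 to 35200 RPKM in P3MH. The sum of 4 embryo and aleurone markers (OLE18, Em, RAB16A and LEA3) was 430 to 681 RPKM in WT, 830 to 1260 RPKM in P1MH and 625 to 970 RPKM in P3MH, and no marker of either list was at 0. OLE18 had the largest part of this sum, with means of 666 RPKM in P1MH and 407 RPKM in P3MH. RAB16A had means of 175 and 96 RPKM, Em 112 RPKM in both lines, and LEA3 134 and 157 RPKM. The endosperm sums of P1MH and P3MH did not overlap, but the sum was carried by GluA-1 and GluA-2. GluA-1 had a mean of 22500 RPKM in P1MH and 16000 RPKM in P3MH, and GluA-2 of 17400 and 12600 RPKM, whereas AGPS2 had 1300 and 1650 RPKM and BEI 2000 and 2420 RPKM. The other checked glutelins, outside this sum, went both ways. In P1MH and P3MH, GluA-3 had means of 29600 and 27500 RPKM and GluB-5 of 25100 and 23200 RPKM. GluB-2 had 14100 and 14600 RPKM, GluB-4 17500 and 20500 RPKM, and GluD-1 3200 and 3790 RPKM. PETE, the checked marker of the green seed coat, was at 47.4 to 58.7 RPKM in WT, 31.8 to 34.4 RPKM in P1MH and 31.8 to 49.3 RPKM in P3MH, and it was lower in P1MH than in WT by limma (log2 fold change -0.66, adjusted p = 0.0259). The part of these markers in the differences below was not tested, and fewer cells of a type and less RNA per cell cannot be told apart in whole seeds.

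P1MH replicate 3 shared a pattern of absent transcripts with the P3MH libraries. At 17 of the 46 loci tied at 0, all 3 P3MH libraries and P1MH replicate 3 were listed at 0 while P1MH replicates 1 and 2 had reads. No locus showed this pattern for P1MH replicate 1 or P1MH replicate 2, and none showed the mirrored pattern for a P3MH library against P1MH. The opposite case, reads in P1MH replicate 3 and all P3MH libraries but none in P1MH replicates 1 and 2, held at 4 further loci outside the 129, beside 0 for P1MH replicate 1 and 1 for P1MH replicate 2. LOC_Os11g47453 was the most abundant of the 17, at 80.2, 53.6 and 61.8 RPKM in WT, 43.4, 46.6 and 0 RPKM in P1MH and 0, 0 and 0 RPKM in P3MH. Its neighbour LOC_Os11g47370, which lies 35.4 kb away on chromosome 11, was at 15.9, 16.1 and 16.2 RPKM in WT, 15.3, 15.8 and 0 RPKM in P1MH and 0, 0 and 0 RPKM in P3MH. Both loci thus had reads in the WT libraries and in 2 P1MH libraries, and none in the other 4. The same held for LOC_Os12g20410 on chromosome 12, at 30.8, 25.7 and 28.6 RPKM in WT, 22.7, 20.4 and 0 RPKM in P1MH and 0, 0 and 0 RPKM in P3MH, and for LOC_Os12g20390, which lies 8.1 kb away. Another neighbouring pair, LOC_Os05g30660 and LOC_Os05g30720, lay 29.1 kb apart on chromosome 5. LOC_Os10g20480 showed a different pattern, at 0.0286, 0 and 0 RPKM in WT, 9.87, 8.18 and 0 RPKM in P1MH and 0, 0 and 0 RPKM in P3MH, with almost no reads in WT. The 17 loci lay on 7 chromosomes, 6 of them on chromosome 12 and 3 on chromosome 10. Of the 17, 14 had reads in all WT libraries, and in these the mean of P1MH replicates 1 and 2 was 0.463 to 3.34 times the WT mean, with a median of 0.693 times. The reads behind the P1MH values ranged from 5 to 327 per library, and in 16 of the 17 loci both libraries had at least 10. A count of 0 allows up to 3 reads, a limit that covers counting error only. Whether this library matches its label and shares the background of the other P1MH libraries was not tested, so every P1MH value and the choice of genes carry that doubt. All 83 genes described below also met the conditions without P1MH replicate 3, although the gap can only widen or stay when a library is left out, and the main counts are given with and without it.

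**Figure D1:**
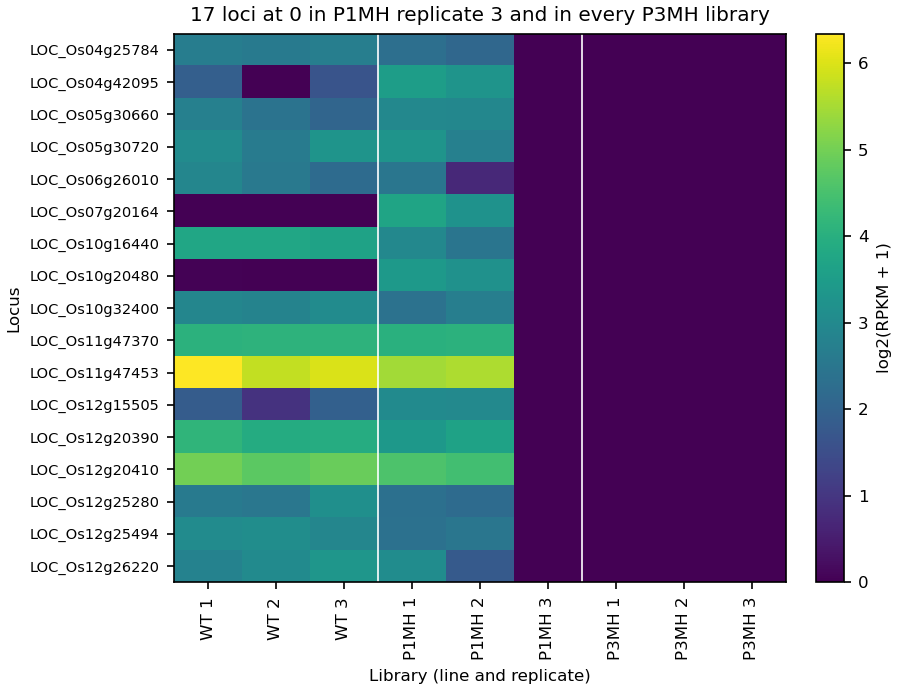
Expression of the 17 loci listed at 0 in P1MH replicate 3 and in every P3MH library. Columns are the 9 libraries, each a line and replicate, and the colour gives log2(RPKM + 1). The columns of P1MH replicates 1 and 2 are filled, and those of P1MH replicate 3 and the 3 P3MH libraries are at 0 throughout.

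The other 29 tied loci carried almost no reads in either mutant line. At 22 of them all 6 mutant libraries were listed at 0 while the WT libraries had reads, so they do not tell the lines apart. These loci included a run of 5 on chromosome 4 (LOC_Os04g16816, LOC_Os04g16775, LOC_Os04g16824, LOC_Os04g16828 and LOC_Os04g16832) and a run of 3 on chromosome 8 (LOC_Os08g15264, LOC_Os08g15276 and LOC_Os08g15278). Pairs with 0.1 kb between them lay on chromosome 5 (LOC_Os05g22718 and LOC_Os05g22722), chromosome 7 (LOC_Os07g25018 and LOC_Os07g25022) and chromosome 9 (LOC_Os09g24406 and LOC_Os09g24408). LOC_Os04g16824, for example, was at 94.4, 78.3 and 110 RPKM in the WT libraries. The last 7 loci had reads in 1 mutant library each, and the highest of these values was 29.7 RPKM for LOC_Os04g16822 in P3MH replicate 2, a locus with no reads in WT.

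The 83 separated genes were mostly of low abundance. The median of their mean RPKM was 4.78 for those higher in P1MH and 5.55 for those higher in P3MH, beside 8.39 for all 13254 genes, and 59 of the 83 had a mean under 10 RPKM. The ratio between the line means ran from 1.57 to 48.4 for the genes higher in P1MH (median 2.04) and from 1.58 to 11.9 for those higher in P3MH (median 2.29). These ratios were fixed by the choice of genes and are not tested. Within a line, the highest library was a median of 1.33 times the lowest in P1MH and 1.34 times in P3MH for the genes higher in P1MH, and 1.45 and 1.41 times for the genes higher in P3MH. The loci were somewhat short, with a median span of 3016 bases for those higher in P1MH and 2254 bases for those higher in P3MH beside 3853 bases for all 13254. No library of either line was the one nearest to the other line in most genes: P1MH replicate 3 held the lowest P1MH value in 15 of the 43 genes higher in P1MH and the highest in 10 of the 40 genes higher in P3MH. The choice kept only genes in which every P1MH library cleared every P3MH library, so nothing is read from this about P1MH replicate 3.

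The genes were grouped by whether the 3 libraries of a mutant line overlapped the 3 WT libraries. Of the 83 genes, 24 had only P1MH apart from WT and 21 had only P3MH apart from WT. Both lines lay apart from WT in 28 genes, on the same side of it in 16 and on opposite sides in 12, and neither line lay apart in 10. Among all 13254 genes the shares were 16.8% for P1MH only, 12.3% for P3MH only, 15.3% for the same side, 0.324% for opposite sides and 55.4% for neither. Nothing is read from the difference between these shares, since the groups use the same P1MH and P3MH values as the choice of genes. Without P1MH replicate 3 the same 83 genes fell into 25, 18, 16, 15 and 9 genes in that order.

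**Figure D2:**
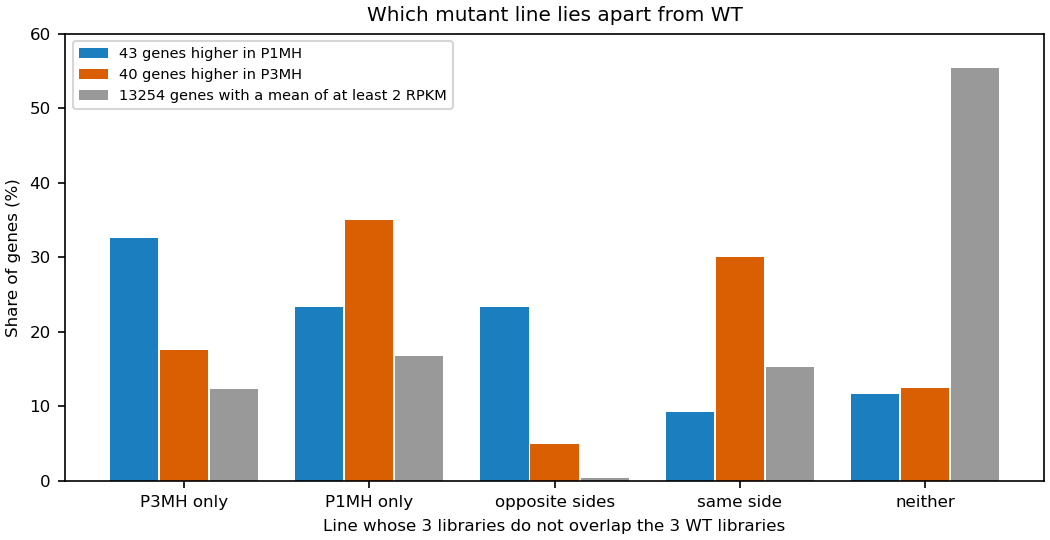
Share of genes in percent, by which line has 3 libraries that do not overlap the 3 WT libraries, for the 43 genes higher in P1MH, the 40 genes higher in P3MH and all 13254 genes that reach a mean of 2 RPKM. On the deposited scale, among genes higher in P1MH the P3MH-only group was the most frequent, with 14 genes, and among genes higher in P3MH the P1MH-only group was, with 14 genes.

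The direction of the departures was counted next, beside the share of all 13254 genes. Among the 43 genes higher in P1MH, 14 had P3MH alone below WT (9.39% of all genes), 10 had P1MH alone above WT (5.58%) and 10 had P1MH above and P3MH below (0.226%). Both lines lay below WT in 2 genes (11.2%) and above WT in 2 (4.02%), and 5 had neither apart. Among the 40 genes higher in P3MH, 14 had P1MH alone below WT (11.2%) and 7 had P3MH alone above WT (2.89%). Both lines lay below WT in 9 of the 40, with P1MH the lower, and above WT in 3, while P3MH lay above and P1MH below in 2 (0.0981%) and neither lay apart in 5. Nothing is read from the balance between above and below, which moved with the scaling. After rescaling by the median ratio, the 43 genes held 10 with P3MH alone below WT (5.44% of 13242 genes) and 14 with P1MH alone above WT (7.79%). This was the reverse of the deposited scale, and the shares over all genes moved in the same directions. The 40 genes then held 13 with P1MH alone below (9.13%) and 9 with P3MH alone above (5.6%).

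**Figure D3:**
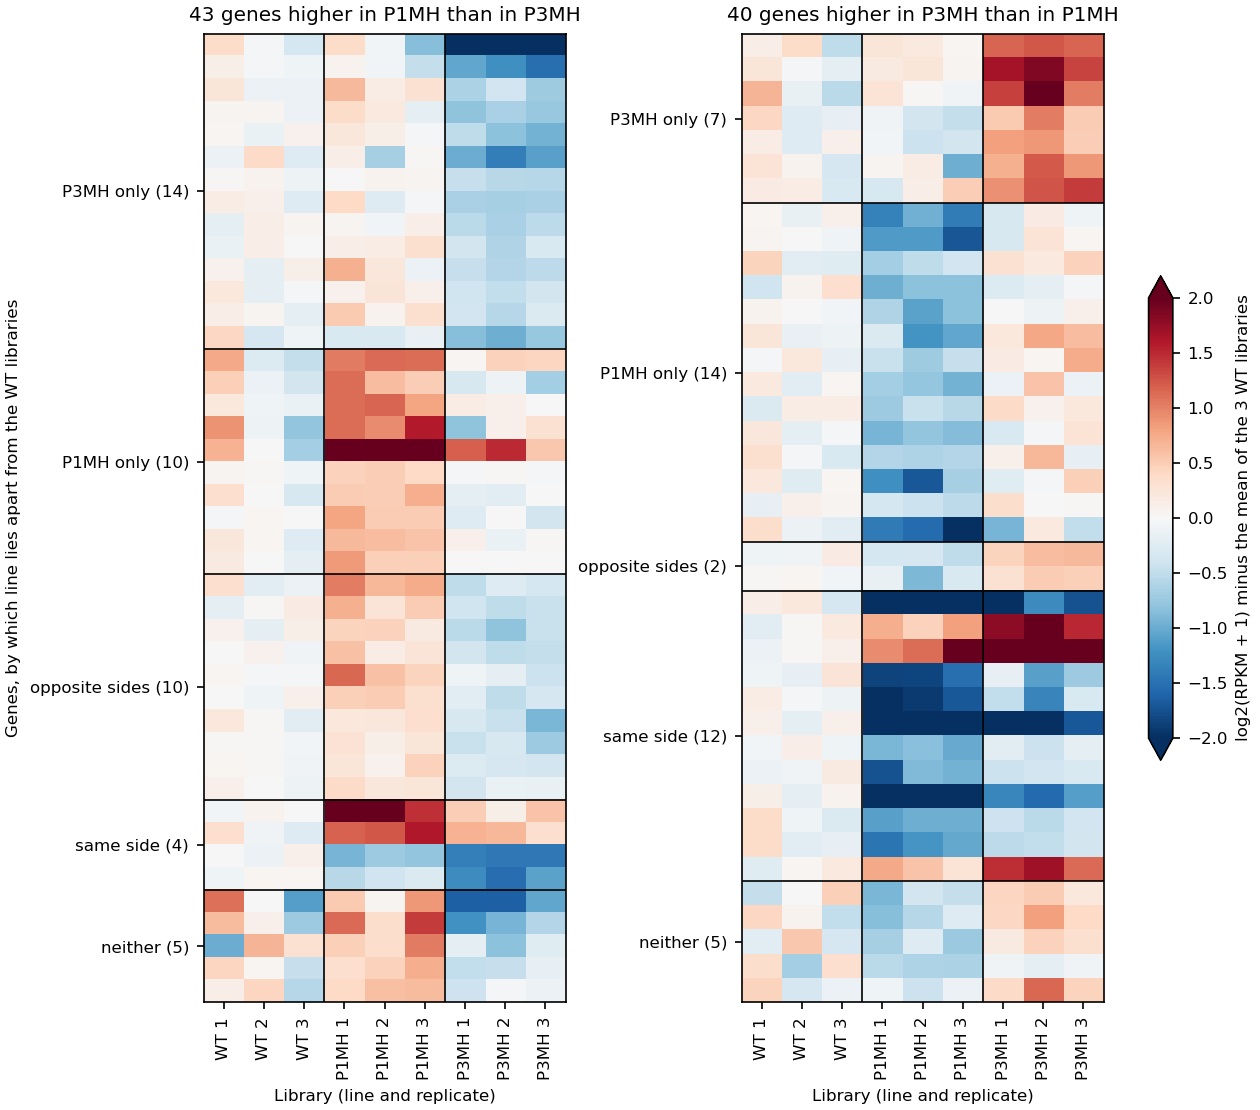
The 83 genes in each library. Rows are genes ordered by the line that lies apart from WT, columns are the 9 libraries, and the colour gives log2(RPKM + 1) minus the mean of the 3 WT libraries, capped at 2 in both directions. The left panel holds the 43 genes higher in P1MH and the right panel the 40 genes higher in P3MH.

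The comparison that the choice of genes did not use was the mean of both lines against WT, a contrast orthogonal to the difference between the lines. In a limma fit over 16064 genes, 1423 genes (8.86%) were called at a false discovery rate of 0.05, 471 higher (2.93%) and 952 lower (5.93%) in the mutants. Of the 83 genes, 25 were called (30.1%), 8 higher and 17 lower. The choice favours genes with little spread in P1MH and P3MH, which enters the error of this test, so the share called is not read as particular to them. The median log2 fold change of the 83 genes was -0.11, the same as the median of all genes tested. The minimum on the mean also fixed the direction of 11 of the 83 genes, 8 with a WT mean under 2 RPKM, which had to be higher in the mutants, and 3 with a mutant mean under 2 RPKM, which had to be lower. Of the 25 calls, 6 fell on these genes, and their values are given as a description. The other 72 genes held 19 calls, 4 higher and 15 lower. Of the 25 called genes, 15 had both lines on the same side of WT, 5 had only P1MH apart and 5 had only P3MH apart. None of the 12 genes with lines on opposite sides and none of the 10 with neither line apart was called by limma. The groups were cut from the same WT and mutant values as this contrast, and opposite sides cancel in the mean. The split of calls by group was thus largely fixed in advance, and nothing is read from it. With the values rescaled by the median ratio, which raised the median of all genes from -0.11 to -0.01, the calls over all genes were split into 666 higher and 535 lower, and those among the 83 into 8 higher and 14 lower. Without WT replicate 3, 16 of the 83 and 504 of all genes were called, and without P1MH replicate 3, 26 of the 83 and 1365 of all genes were.

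Against WT, each line was called in part of the genes, as a description since both comparisons share libraries with the choice of genes. P1MH was called in 29 of the 83 genes (11 higher, 18 lower), beside 8.81% of all genes (3.18% higher, 5.63% lower), and P3MH in 21 (9 higher, 12 lower), beside 4.77% (1.67% higher, 3.1% lower). Without P3MH replicate 2 the count for P3MH was 12, and over all genes 444, beside 766 with it. Without WT replicate 3 the count for P1MH was 19, and over all genes 608, beside 1416 with it. Without P1MH replicate 3, P1MH was called against WT in 26 of the 83 and in 1045 of all genes, beside 1416 with it. Between the lines, limma called 5 of all 16064 genes (0.0311%, or 0.0125% higher and 0.0187% lower in P1MH), and 4 of these were among the 83: LOC_Os12g28015, LOC_Os01g16140, LOC_Os05g01810 and CIPK14. Nothing is read from this overlap, since the choice used that contrast. The count of 5 became 242 without P1MH replicate 3, of which 31 were among the 83 genes, and it became 0 by limma without P1MH replicate 1, P3MH replicate 1 or P3MH replicate 2, where 1527 to 2127 genes had an unadjusted p under 0.05.

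**Figure D4:**
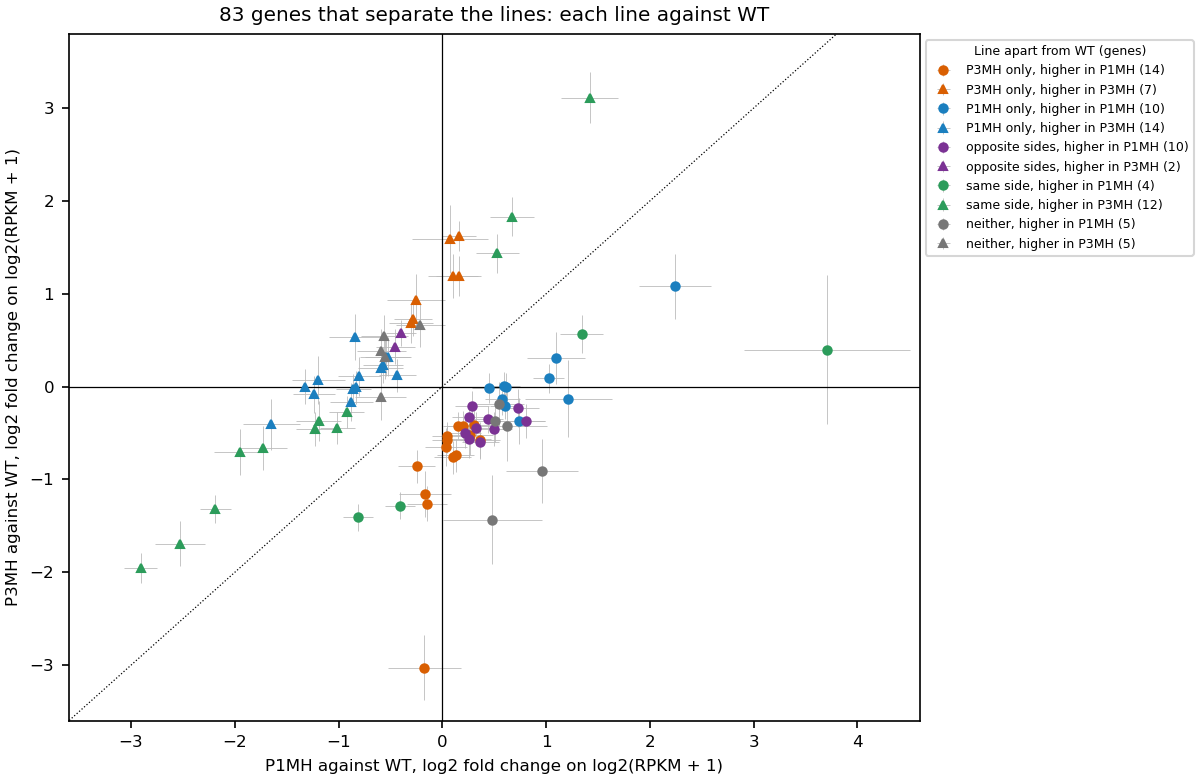
Log2 fold change of P1MH against WT (horizontal) and of P3MH against WT (vertical) on the log2(RPKM + 1) scale for the 83 genes, with bars of 1 standard error from limma. Colours give the line that lies apart from WT, circles are genes higher in P1MH and triangles are genes higher in P3MH. The dotted line marks equal changes, and the band without points along it follows from the choice of genes.

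Names could be checked for 8 of the 83 genes. Both checked abscisic acid 8'-hydroxylases among them, which start the breakdown of abscisic acid, were higher in P3MH. ABA8ox1 (LOC_Os02g47470, chr2:28995717-28998581) was at 3.37, 2.33 and 2.43 RPKM in WT, 2.03, 0.613 and 0.79 RPKM in P1MH and 3.24, 5.29 and 4.67 RPKM in P3MH. Only its P1MH libraries lay apart from WT, below it, and the P3MH mean was 3.85 times the P1MH mean. The mean of both lines against WT was not called (log2 fold change -0.15, SE 0.22, adjusted p = 0.706). ABA8ox2 (LOC_Os08g36860, chr8:23288613-23294164) was at 14, 9.95 and 8.54 RPKM in WT, 4.5, 4.93 and 4.88 RPKM in P1MH and 7.72, 6.98 and 7.95 RPKM in P3MH. Both lines lay below WT without overlap, with P1MH the lower. ABA8ox2 fell in the mean of both lines (log2 fold change -0.73, SE 0.15, adjusted p = 0.00998), a call that was lost without WT replicate 1 (log2 fold change -0.54, adjusted p = 0.0597).

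Other genes of abscisic acid metabolism with checked names were not among the 83. ABA8ox3, another 8'-hydroxylase, was at 0.341, 0.345 and 0.219 RPKM in WT, at 0, 0 and 0.0792 RPKM in P1MH and at 0.399, 0.256 and 0.0700 RPKM in P3MH, too low for the conditions. NCED3, which catalyses the committed step of abscisic acid synthesis, was at 0.0275, 0.175 and 0.317 RPKM in WT, at 0.830, 0.927 and 0.631 RPKM in P1MH and at 0.520, 0.494 and 0.152 RPKM in P3MH. Its P1MH libraries were the highest and did not overlap those of P3MH, but its mean was also under 2 RPKM. ZEP, zeaxanthin epoxidase of the same pathway, was at 5.39, 6.16 and 6.21 RPKM in P1MH and at 4.42, 4.48 and 5.04 RPKM in P3MH, with both lines overlapping the WT libraries at 6.55, 5.16 and 4.85 RPKM. Of 5 checked genes of abscisic acid metabolism, a list assembled with results known, 2 were thus among the 83, both higher in P3MH. The share of members higher in P3MH among all 13254 genes was 0.302%, and nothing is read from 2 genes of such a list. The names of NCED1, NCED2, NCED4, NCED5 and ABA4 could not be checked, so these genes were not looked at by name.

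PM19L1 (LOC_Os05g31670, chr5:18429324-18430293), a plasma membrane protein of the AWPM-19 family, was higher in P1MH, at 2.5, 1.65 and 1.31 RPKM in WT, 5.27, 5.58 and 7.43 RPKM in P1MH and 3.5, 3.4 and 2.52 RPKM in P3MH. Both lines lay above WT, P1MH farther. The mean of both lines against WT gave log2 fold change 0.95, SE 0.18, adjusted p = 0.00533, a direction that the minimum on the mean had fixed. The embryo and aleurone marker sums given above were above every WT library in 5 of the 6 mutant libraries. By limma, OLE18 and RAB16A were called in the mean of both lines (log2 fold change 0.60 and 1.43, adjusted p = 0.045 and 0.0111). Em and LEA3 were not (log2 fold change 0.79 and 0.71, adjusted p = 0.24 and 0.283). The part of these markers in the PM19L1 difference was not tested.

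Genes for 2 related protein kinases were higher in P3MH. CIPK14 and CIPK15 are kinases regulated by calcineurin B-like calcium sensors, and CIPK15 is known in rice for its role in the response to sugar and oxygen shortage. CIPK14 (LOC_Os12g02200, chr12:679074-682269) was at 7.55, 7.64 and 9.12 RPKM in WT, 6.13, 6.19 and 5.38 RPKM in P1MH and 11.4, 12.9 and 13.3 RPKM in P3MH. Its P1MH libraries lay below every WT library and its P3MH libraries above every one. By limma against WT, CIPK14 was called in P3MH (log2 fold change 0.57, adjusted p = 0.0373). Its P1MH change was not called (log2 fold change -0.4, adjusted p = 0.105). CIPK15 (LOC_Os11g02240, chr11:630580-633695) was at 5.29, 3.74 and 5.06 RPKM in WT, 4.42, 3.21 and 3.4 RPKM in P1MH and 9.02, 9.33 and 6.96 RPKM in P3MH. Here only P3MH lay apart from WT, above it, and the P1MH libraries overlapped WT. Neither kinase was called in the mean of both lines against WT, with log2 fold change 0.09, SE 0.12, adjusted p = 0.699 for CIPK14 and log2 fold change 0.22, SE 0.16, adjusted p = 0.399 for CIPK15. The CIPK14 and CIPK15 loci are near-identical copies in a duplicated end of chromosomes 11 and 12, so how reads were shared between them is uncertain and they are not independent of each other.

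A pair of regulatory genes was higher in P1MH. MADS18 (LOC_Os07g41370, chr7:24788476-24793884), a MADS-box transcription factor of the group that acts in flowering and meristem identity, was at 5.62, 5.28 and 6.16 RPKM in WT, 8.29, 8.49 and 7.36 RPKM in P1MH and 4.71, 3.7 and 4.31 RPKM in P3MH. Its P1MH libraries all lay above WT and its P3MH libraries all lay below, with 8.04 ± 0.604 RPKM in P1MH and 4.24 ± 0.509 RPKM in P3MH (SD, n = 3). Their mean did not differ detectably from WT (log2 fold change 0.04, SE 0.13, adjusted p = 0.877). By limma, P1MH was not called against WT (log2 fold change 0.44, adjusted p = 0.0932). Nor was P3MH (log2 fold change -0.35, adjusted p = 0.209). IAA24 (LOC_Os07g08460, chr7:4355211-4356575), an Aux/IAA protein of the family that represses auxin-responsive transcription, was at 3.67, 3.55 and 2.54 RPKM in WT, 4.54, 2.54 and 3.12 RPKM in P1MH and 1.69, 1.68 and 1.7 RPKM in P3MH. Only the P3MH libraries lay apart from WT, below it. The values rest on 6.5 to 17 reads per library at the smallest exon length that fits, which may understate the reads. The call in the mean of both lines was not made (log2 fold change -0.31, SE 0.17, adjusted p = 0.291).

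HMGR3 (LOC_Os08g40180, chr8:25426651-25431502) encodes a hydroxymethylglutaryl-CoA reductase, the regulated enzyme of the mevalonate pathway to sterols. It was at 16.4, 12.6 and 10 RPKM in WT, 18.6, 18.4 and 21.8 RPKM in P1MH and 11.2, 10.9 and 12.7 RPKM in P3MH. The P1MH libraries all lay above WT, and the P3MH libraries overlapped it. HMGR3 was not called in the mean of both lines (log2 fold change 0.22, SE 0.14, adjusted p = 0.366).

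**Figure D5:**
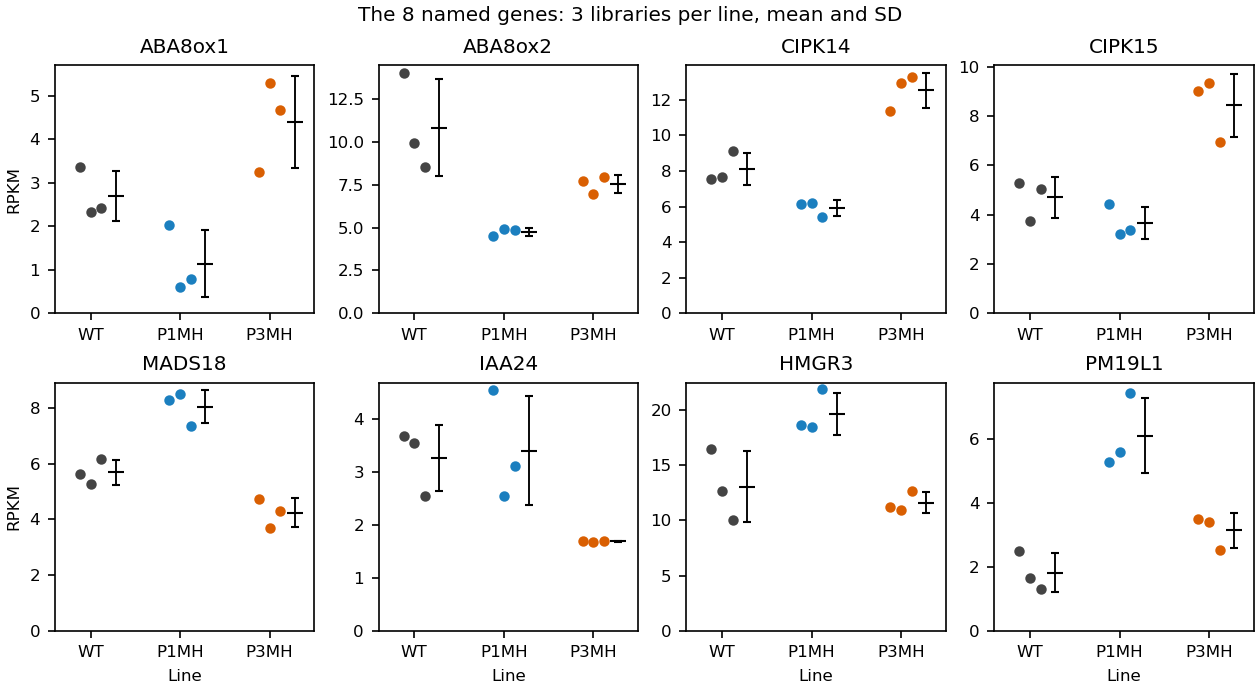
RPKM of the 8 genes with checked names, with 1 point for each of the 3 libraries of WT, P1MH and P3MH and the mean with its SD beside them. All axes start at 0. In ABA8ox1, ABA8ox2, CIPK14 and CIPK15 the P3MH points all lie above the P1MH points, and in MADS18, IAA24, HMGR3 and PM19L1 all lie below them.

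None of the checked genes of the other lists was among the 83. These lists, chosen with earlier results known, held 7 glutelins, 5 starch synthesis genes, 3 genes of protein folding in the endoplasmic reticulum, 5 genes of sucrose and carbon supply, 5 cell cycle genes, 5 clock genes and 6 embryo and aleurone genes. Lists of heat shock, photosynthesis, trafficking, transcription factor and alpha-amylase genes held 1 checked gene each. Of all 13254 genes, 0.324% were members higher in P1MH and 0.302% members higher in P3MH. Lists this short would hold few or none at such shares, so nothing is read from the absence. No prolamine name and no name of GluB-1 could be checked, so these storage proteins were not looked at by name, and the most abundant of the 83 genes carry no checked name.

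The remaining 75 genes carry no checked name and are given by locus. Of the genes with P3MH alone below WT, LOC_Os12g28015 (chr12:16519711-16520331) had the widest gap of all 83. It was at 25.3, 19.2 and 15.1 RPKM in WT, 25.5, 18.7 and 10.4 RPKM in P1MH and 2.24, 0.531 and 2.18 RPKM in P3MH. The P3MH mean of 1.65 ± 0.969 RPKM (SD, n = 3) was 0.0907 times that of P1MH, while the P1MH libraries overlapped WT. It fell in the mean of both lines (log2 fold change -1.60, SE 0.30, adjusted p = 0.00944), a change carried by P3MH, whose libraries held as few as 2 reads. LOC_Os12g38140 was at 6.64, 5.87 and 5.62 RPKM in WT, 6.38, 5.79 and 4.07 RPKM in P1MH and 2.42, 1.99 and 1.47 RPKM in P3MH. It also fell in the mean (log2 fold change -0.71, SE 0.17, adjusted p = 0.0194), but the call was lost without WT replicate 1, 2 or 3, at adjusted p = 0.0909, 0.0744 and 0.0677. LOC_Os02g52930, at 4.18, 3.05 and 3.05 RPKM in WT, 5.87, 3.88 and 4.41 RPKM in P1MH and 1.83, 2.37 and 1.7 RPKM in P3MH, and LOC_Os05g33620, at 3.98, 3.99 and 3.42 RPKM in WT, 5.19, 4.47 and 3.24 RPKM in P1MH and 1.75, 2.04 and 1.82 RPKM in P3MH, had P3MH libraries below every WT library and were not called in the mean.

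Genes with P3MH alone above WT included a gene near RBP-P. LOC_Os01g16140 (chr1:9114002-9114253) lies 47.2 kb from RBP-P on chromosome 1, and it was at 9.9, 7.94 and 7.0 RPKM in WT, 9.47, 9.83 and 8.52 RPKM in P1MH and 28.2, 32.1 and 22.6 RPKM in P3MH. The P1MH libraries overlapped WT, while every P3MH library was far above every other library, and the P3MH mean was 2.98 times the P1MH mean. It rose in the mean of both lines (log2 fold change 0.89, SE 0.14, adjusted p = 0.00191). LOC_Os11g14900 was at 2.02, 2.53 and 0.924 RPKM in WT, 2.23, 2.13 and 1.81 RPKM in P1MH and 5.15, 5.51 and 5.15 RPKM in P3MH, with the P3MH libraries all close to each other and above the rest. Its direction against WT was fixed by the minimum on the mean, and its call in the mean of both lines (log2 fold change 0.68, SE 0.19, adjusted p = 0.042) was lost in 7 of the 9 fits without 1 library, at up to adjusted p = 0.226 without WT replicate 3. LOC_Os03g07890, at 11.6, 6.06 and 4.39 RPKM in WT, 8.45, 6.98 and 6.43 RPKM in P1MH and 19.1, 40.1 and 14.9 RPKM in P3MH, varied widely within P3MH and was called in the mean only without WT replicate 1 (adjusted p = 0.0494, against 0.131). LOC_Os03g05750, at 6.34, 3.59 and 3.93 RPKM in WT, 4.26, 3.27 and 2.95 RPKM in P1MH and 6.92, 10.1 and 6.86 RPKM in P3MH, showed the same order of lines and was not called.

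Genes with P1MH alone below WT were the most frequent group among those higher in P3MH. LOC_Os01g59680 was at 3.13, 2.66 and 3.35 RPKM in WT, 0.586, 1.06 and 0.527 RPKM in P1MH and 2.23, 3.52 and 2.79 RPKM in P3MH. P1MH lay at 0.255 times the P3MH mean, and the P3MH libraries overlapped WT. Its direction against WT was fixed by the minimum on the mean, and its call in the mean of both lines (log2 fold change -0.66, SE 0.17, adjusted p = 0.0318) was lost under 7 of 12 alternatives, among them the fit without P1MH replicate 3 (adjusted p = 0.0514), the median-ratio rescaling (adjusted p = 0.0679) and the fit without WT replicate 3 (adjusted p = 0.155). LOC_Os05g01810 (chr5:486053-488406) was at 20.5, 19.8 and 18.8 RPKM in WT, 8.38, 8.46 and 5.34 RPKM in P1MH and 15.6, 24 and 20.2 RPKM in P3MH. Its P1MH libraries were all far below the lowest WT library. It fell in the mean of both lines (log2 fold change -0.66, SE 0.16, adjusted p = 0.0238), a call lost without any WT library, at adjusted p = 0.0792 to 0.0955, and with the median-ratio rescaling, at 0.0691.

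The same group held the most abundant genes higher in P3MH. LOC_Os02g14600 (chr2:8057649-8059669) was at 3614, 4871 and 4861 RPKM in WT, 2666, 3247 and 3003 RPKM in P1MH and 5768, 4667 and 5123 RPKM in P3MH. The P3MH mean was 1.75 times the P1MH mean, P3MH overlapped WT, and the mean of both lines was not called (log2 fold change -0.17, SE 0.17, adjusted p = 0.563). LOC_Os05g34510 (chr5:20457201-20457856) was at 3309, 2394 and 2223 RPKM in WT, 973, 894 and 656 RPKM in P1MH and 1365, 2977 and 1854 RPKM in P3MH. It lay just inside the conditions, with a gap of 1.403 times, and its P1MH libraries were all far below WT. It fell in the mean of both lines (log2 fold change -1.03, SE 0.24, adjusted p = 0.0194), a call lost without WT replicate 1, 2 or 3 at adjusted p = 0.0957, 0.0652 and 0.0522. LOC_Os05g49410 was at 3.39, 1.79 and 1.74 RPKM in WT, 1.02, 1.27 and 1.49 RPKM in P1MH and 2.99, 2.71 and 3.44 RPKM in P3MH and LOC_Os01g17065 at 2.52, 3.87 and 4.84 RPKM in WT, 1.35, 1.63 and 1.62 RPKM in P1MH and 2.85, 3.05 and 3.58 RPKM in P3MH. Both had every P1MH library below every WT library, and LOC_Os01g17065 rests on 3 to 13 reads per library. LOC_Os01g17065 was called in the mean only without WT replicate 1 (adjusted p = 0.0407, against 0.0855).

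Genes with P1MH alone above WT formed the other side. LOC_Os03g15940 (chr3:8797848-8799836) was at 10.9, 8.76 and 8.41 RPKM in WT, 21.4, 22.1 and 16.8 RPKM in P1MH and 10.4, 10.1 and 9.41 RPKM in P3MH. Its P1MH mean was 2.02 times the P3MH mean, and P3MH overlapped WT. It rose in the mean of both lines (log2 fold change 0.56, SE 0.13, adjusted p = 0.0199), a call lost without WT replicate 2 (adjusted p = 0.105) or WT replicate 3 (adjusted p = 0.12). LOC_Os08g03410, the second most abundant gene higher in P1MH, was at 141, 70.6 and 43.3 RPKM in WT, 166, 146 and 229.8 RPKM in P1MH and 42.9, 81.4 and 94 RPKM in P3MH. Its highest WT library lay just below its lowest P1MH library, and the P3MH libraries overlapped WT. LOC_Os07g31650 was at 4.56, 2.67 and 2.1 RPKM in WT, 7.61, 5.13 and 4.62 RPKM in P1MH and 2.18, 2.7 and 1.5 RPKM in P3MH and LOC_Os01g12100 at 2.73, 0.828 and 0.585 RPKM in WT, 3.53, 3.85 and 3.81 RPKM in P1MH and 1.28, 2.05 and 1.96 RPKM in P3MH, the latter on 2 to 12 reads per library. Neither was called in the mean of both lines. The direction of LOC_Os01g12100 was fixed by the minimum on the mean.

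In 12 genes the lines lay on opposite sides of WT, 10 of them with P1MH above. LOC_Os05g39690 (chr5:23297457-23300472) had the widest gap of this group, at 7.86, 4.99 and 5.44 RPKM in WT, 13.3, 10 and 10.6 RPKM in P1MH and 3.93, 4.83 and 4.49 RPKM in P3MH. Every P1MH library lay above every WT library and every P3MH library below, with a P1MH mean 2.56 times that of P3MH. LOC_Os10g25570, at 2.19, 2.67 and 3.03 RPKM in WT, 4.93, 3.32 and 4.14 RPKM in P1MH and 1.73, 1.54 and 1.64 RPKM in P3MH, had the same order. So had LOC_Os02g39530, at 3.5, 2.71 and 3.59 RPKM in WT, 4.8, 4.84 and 3.84 RPKM in P1MH and 1.93, 1.42 and 2.12 RPKM in P3MH, and LOC_Os02g52314, at 2.28, 2.48 and 2.12 RPKM in WT, 3.93, 2.64 and 2.92 RPKM in P1MH and 1.55, 1.32 and 1.36 RPKM in P3MH, which rest on few reads (8 to 40 per library). The most abundant gene higher in P1MH, LOC_Os12g16890 (chr12:9688985-9689714), was at 3891, 3417 and 2887 RPKM in WT, 3916, 3959 and 4260 RPKM in P1MH and 2702, 2466 and 1785 RPKM in P3MH. Its highest WT library reached 3891 RPKM and its lowest P1MH library 3916 RPKM, so P1MH lay apart from WT by a small margin. Beside CIPK14, LOC_Os05g48300 was the only gene of this group higher in P3MH, at 6.94, 7.05 and 6.58 RPKM in WT, 6.05, 3.23 and 5.33 RPKM in P1MH and 8.69, 10.2 and 9.89 RPKM in P3MH. When a line had to lie at least 1.2 times beyond the WT libraries, 1 of the 12 genes still had both lines apart on opposite sides. By limma against WT, LOC_Os05g39690 was called in P1MH (log2 fold change 0.81, adjusted p = 0.0157). Its P3MH change was not called (log2 fold change -0.37, adjusted p = 0.276). LOC_Os10g25570, LOC_Os02g39530, LOC_Os02g52314, LOC_Os12g16890 and LOC_Os05g48300 were called against WT in neither line.

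In 16 genes both lines lay on the same side of WT and differed in degree. LOC_Os12g22970 (chr12:12986903-12989769) had the largest rise among the called genes, at 17.2, 19.1 and 20.4 RPKM in WT, 37, 42.2 and 90.3 RPKM in P1MH and 183, 194 and 138 RPKM in P3MH. WT was lowest, P1MH intermediate and P3MH highest with no overlap between lines, and P1MH replicate 3 lay above the other P1MH libraries. It rose in the mean of both lines (log2 fold change 2.27, SE 0.24, adjusted p = 9.78e-05), and without P1MH replicate 3 the log2 fold change was 2.07 (adjusted p = 1.05e-06). LOC_Os08g28670 was at 0.602, 0.912 and 1.16 RPKM in WT, 2.1, 1.59 and 2.31 RPKM in P1MH and 5.49, 7.55 and 4.35 RPKM in P3MH, with the same order of lines (log2 fold change 1.25, SE 0.18, adjusted p = 0.00104 in the mean of both lines). LOC_Os12g40330, just inside the conditions with a gap of 1.406 times, was at 0.974, 1.42 and 1.69 RPKM in WT, 2.94, 2.47 and 1.83 RPKM in P1MH and 5.53, 6.57 and 4.14 RPKM in P3MH, also in this order (log2 fold change 0.98, SE 0.18, adjusted p = 0.00511). LOC_Os08g28670 and LOC_Os12g40330 had WT means under 2 RPKM, so the minimum on the mean fixed their direction.

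Most genes of this group were below WT in both lines, 11 of the 16, and 9 of these were lower in P1MH than in P3MH. LOC_Os08g42890 was at 5.77, 6.19 and 3.88 RPKM in WT, 0, 0.243 and 0 RPKM in P1MH and 0.485, 1.56 and 0.852 RPKM in P3MH. P1MH was at 0 in replicates 1 and 3, and no library of this gene held more than 29.5 reads. It passed the minimum on the mean only through WT, so its fold change in the mean of both lines (log2 fold change -2.11, SE 0.21, adjusted p = 2.7e-05) had its direction fixed by the choice. LOC_Os06g07740 was at 6.1, 5.73 and 7.98 RPKM in WT, 1.08, 1.12 and 1.66 RPKM in P1MH and 5.72, 2.54 and 3.55 RPKM in P3MH, all P1MH libraries being below the rest. It fell in the mean (log2 fold change -1.20, SE 0.20, adjusted p = 0.00288). The 2 genes with the lowest adjusted p of the 83, named here after their values were seen, lie on chromosome 4. LOC_Os04g28120 (chr4:16602471-16605138) was at 77.9, 63.7 and 78.2 RPKM in WT, 10.5, 8.29 and 7.89 RPKM in P1MH and 15.9, 16.8 and 21.9 RPKM in P3MH, and LOC_Os04g12639 (chr4:6996863-7005632) was at 74.8, 60.8 and 72.5 RPKM in WT, 14.9, 15.7 and 12.7 RPKM in P1MH and 27.3, 22.9 and 31.7 RPKM in P3MH. In both, P3MH was far below WT and P1MH lower still, at 0.489 times the P3MH mean in LOC_Os04g28120 and 0.529 times in LOC_Os04g12639. The mean of both lines fell, with log2 fold change -2.43, SE 0.14, adjusted p = 9.1e-08 for LOC_Os04g28120 and log2 fold change -1.75, SE 0.13, adjusted p = 1.78e-06 for LOC_Os04g12639.

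The reverse order, with P3MH the lower of a pair of lines below WT, was found in 2 genes. LOC_Os02g23821 was at 11, 10.1 and 11.8 RPKM in WT, 5.31, 6.25 and 5.93 RPKM in P1MH and 3.63, 3.42 and 3.46 RPKM in P3MH, and LOC_Os11g44810 was at 73, 79.9 and 79.3 RPKM in WT, 52.6, 58.4 and 63.3 RPKM in P1MH and 31.8, 26.2 and 36.1 RPKM in P3MH. In both, WT was highest, P1MH intermediate and P3MH lowest, with no overlap between the lines. Both fell in the mean (log2 fold change -1.11, SE 0.12, adjusted p = 8.86e-05 for the first and log2 fold change -0.85, SE 0.13, adjusted p = 0.00115 for the second).

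LOC_Os02g40330 (chr2:24409309-24414084) was the gene with the largest ratio between the lines, 48.4 times. It was at 0.0307, 0.126 and 0.0739 RPKM in WT, 24.4, 35.8 and 1.96 RPKM in P1MH and 0.517, 0.173 and 0.596 RPKM in P3MH. P1MH replicates 1 and 2 were far above everything else, and P1MH replicate 3 was far lower than they were, though above all P3MH libraries. It reached the minimum on the mean only through P1MH, so its direction against WT was fixed by the choice. The log2 fold change of the mean of both lines was 2.05 over all libraries (SE 0.69), and limma did not call it (adjusted p = 0.109). This fold change was 2.61 without P1MH replicate 3 and 3.82 with a pseudocount of 0.1. Each line against WT had log2 fold change 3.71 in P1MH (SE 0.80) and 0.40 in P3MH (SE 0.80).

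In 10 genes neither line lay apart from WT, since the WT libraries spanned the gap between the lines. LOC_Os01g03360 was at 36.5, 16.4 and 7.09 RPKM in WT, 24, 17.1 and 30.8 RPKM in P1MH and 4.6, 4.64 and 7.5 RPKM in P3MH, and LOC_Os04g09390 was at 11.8, 7.88 and 4.05 RPKM in WT, 17.3, 9.55 and 20.9 RPKM in P1MH and 2.59, 3.35 and 4.54 RPKM in P3MH. In both genes the WT libraries overlapped those of P1MH and those of P3MH. LOC_Os05g26250, at 2.66, 10.7 and 8.0 RPKM in WT, 9.13, 8.29 and 14 RPKM in P1MH and 5.35, 3.12 and 5.12 RPKM in P3MH, and LOC_Os01g52690, at 6.19, 4.49 and 2.91 RPKM in WT, 5.74, 6.37 and 7.84 RPKM in P1MH and 2.82, 2.88 and 3.77 RPKM in P3MH, were of the same kind. Among genes higher in P3MH, LOC_Os03g58880 was at 2.99, 4.53 and 6.75 RPKM in WT, 1.95, 3.28 and 3.0 RPKM in P1MH and 6.46, 6.91 and 5.45 RPKM in P3MH and LOC_Os02g15670 at 15.2, 11.7 and 7.66 RPKM in WT, 5.73, 7.2 and 9.11 RPKM in P1MH and 15.2, 20.5 and 15.1 RPKM in P3MH. LOC_Os03g07380, at 1.89, 3.86 and 1.63 RPKM in WT, 1.1, 1.79 and 0.985 RPKM in P1MH and 2.78, 3.6 and 3.13 RPKM in P3MH, and LOC_Os05g04940, at 4.09, 1.46 and 3.99 RPKM in WT, 1.74, 1.58 and 1.56 RPKM in P1MH and 2.78, 2.46 and 2.76 RPKM in P3MH, likewise had WT libraries that overlapped both lines. LOC_Os05g04940 was called in the mean only without WT replicate 2 (adjusted p = 0.0458, against 0.33).

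The 83 genes were spread over all 12 chromosomes. They made up 1.41% of the genes reaching a mean of 2 RPKM on chromosome 12 (10 of 709), 1.12% on chromosome 5 (13 of 1162) and 0.927% on chromosome 8 (8 of 863), and the lowest share was 0.192% on chromosome 6 (2 of 1039). The only 2 members within 100 kb of each other were LOC_Os01g16140 and LOC_Os01g16260 on chromosome 1, 89.7 kb apart and 47.2 and 137.2 kb from RBP-P. LOC_Os01g16260 was at 9.3, 7.11 and 5.67 RPKM in WT, 4.49, 4.34 and 4.5 RPKM in P1MH and 7.78, 12.1 and 6.36 RPKM in P3MH. Its P1MH libraries lay below WT and its P3MH libraries overlapped WT, whereas in LOC_Os01g16140 only P3MH departed. LOC_Os01g17065, described above, lies 742.6 kb from RBP-P, and all 3 were higher in P3MH. No window around RBP-P had been set, so nothing is read from this shared direction. Over the whole of chromosome 1, 5 members were higher in P1MH and 5 higher in P3MH. How the distance to RBP-P relates to these values was not tested.

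The limit of 1.4 times was not a natural break. Gaps of at least 1.0, 1.2, 1.4 and 2.0 times were met by 2053, 389, 83 and 8 genes. Just outside it lay LOC_Os06g07220, which rounds to 1.4 times, at 50.9, 41.8 and 35.9 RPKM in WT, 76.6, 60.8 and 68.5 RPKM in P1MH, and 30.8, 27.5 and 43.5 RPKM in P3MH. LOC_Os12g40300, with a gap of 1.396 times, was at 7.29, 5.78 and 5.22 RPKM in WT, 2.70, 4.09 and 3.73 RPKM in P1MH, and 5.71, 7.67 and 6.02 RPKM in P3MH. Leaving out P1MH replicate 3 raised the number of genes that met the conditions to 360, the most of any library left out, beside 180 to 296 for the others. Of the 360 genes, 127 had only P1MH apart from WT, 80 only P3MH, 76 both on the same side, 58 both on opposite sides and 19 neither.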

How the data were processed

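The authors deposited 1 table of RPKM values per locus and library, per the file headers. Per the labels' protocols, total RNA went into ScriptSeq v2 libraries. Not given in the sources used here are aligner, counter, strand setting and build, so coordinates are those of the deposited table. All 9 columns of values were used.

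Mapped read totals were recovered from the spacing of low RPKM values, on which 56.0 to 66.5% of 3000 values tried per library fell; some WT values fell on 0.5 read. Reads per gene use the smallest exon length that gives steps of 1 or 0.5 read in all libraries, and may be too small. Reads carry no molecular identifiers.

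The main test was limma 3.58.1 in R 4.3.3 (trend, robust) on log2(RPKM + 1), run on loci whose mean reached 1 RPKM, with all 9 libraries in 1 fit and Benjamini-Hochberg adjustment over 16064 genes at 0.05. This scale understates fold changes of low genes. P-values reflect only the variation among the repeats of a line. In data simulated for the mean of both mutants against WT, 75 of 94 genes changed 2-fold, 89 of 89 changed 4-fold and 3 of 15697 unchanged genes were called. The simulation gave all genes the same dispersion and exon length and held no deviating library, so these rates need not hold for the real data. Other steps ran in Python 3.11.15 (pandas 2.3.3, numpy 2.4.6), with plots from matplotlib 3.10.9.

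A line lay apart from WT where its 3 libraries did not overlap the 3 WT libraries. Named loci were, per direction and group, the 4 with the widest gap, those called between the lines, those with a checked name, the 2 most abundant per direction, neighbours within 5 loci or 100 kb, and the 2 on each side of the limit. Of 67 names tried, 52 were checked against the RefSeq gene table of ASM3414082v1, by chromosome, order and a span of 0.8 to 1.25 times that in the deposited table. Members, lists and names were chosen with earlier results of these data known. Alternatives covered scaling, pseudocount, filters, the limma settings, the replicate block, the limits of the rule and each library left out. The inclusion of loci tied at 0, and the groups of the members found without P1MH replicate 3, were added after seeing the data. The counts of genes on each side of WT under each scaling, and of members whose direction the minimum on the mean fixes, were likewise added.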

Additional observations from a re-analysis of the deposited data

How the results depend on the processing

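The number of genes that met the conditions moved with every limit. With gaps of 1.2 and 2 times there were 214 and 5 genes higher in P1MH and 175 and 3 higher in P3MH. With means of at least 1 and 5 RPKM there were 82 and 20 higher in P1MH and 72 and 22 higher in P3MH, and with ties at 0 counted 85 and 66. Rescaling by the median ratio gave 36 and 42 genes, by the upper quartile 31 and 53, and quantile normalization 36 and 52. Leaving out 1 mutant library gave 92 to 197 and 74 to 163 genes, and a rule on lowest and highest values can only relax when a library is left out. With a gap to WT of at least 1.2 times, 1 of the 83 genes had lines on opposite sides, 7 on the same side and 23 neither. The last group held 6 genes after rescaling by the median ratio or the upper quartile, and 3 to 10 when 1 library was left out. Ranges without 1 library were 18 to 26 for P3MH only, 21 to 26 for P1MH only, 12 to 17 for opposite sides and 16 to 23 for the same side. For the mean of both mutants against WT, the calls over all genes were 504 to 1459 without 1 library and 948 with a mean of at least 5 RPKM, and those among the 83 were 16 to 26 and 15. For P1MH against WT they were 608 to 1464 and, among the 83, 19 to 29 without 1 library. For P3MH against WT they were 344 to 903 and 12 to 21 without 1 library, and 436 and 12 with a mean of at least 5 RPKM, where 42 of the 83 were tested. Between the lines, limma called 0 to 242 genes without 1 library, 2 with a pseudocount of 0.1, 3 without trend and robust moderation, and 0 with no filter, where 2854 genes had an unadjusted p under 0.05. The cause of these shifts was not tested. Rescaling changed the split of all calls in the mean of both mutants from 33.1% higher to 55.5% with the median ratio, 57.4% with the upper quartile and 56.3% with quantile normalization. For P1MH against WT it went from 36.1% to 53.6%, 53.2% and 55.3%, and for P3MH from 35.0% to 54.1%, 57.4% and 54.9%. Replicates with the same number did not deviate together (correlations -0.31 to 0.11), so the numbers do not pair the libraries. With the replicate block the 3 comparisons with WT called 1138, 1178 and 650 genes, of which 23, 28 and 20 were among the 83, and 5 genes were called between the lines. For the 49 loci named by the rule, 554 of 588 alternative fits of the mean of both mutants kept their side of the threshold, 28 lost a call in 7 loci, 6 gained one in 5 loci, and no call changed direction. Low reads limit the smallest members, whose 9 libraries held as few as 40 reads in all.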
